A study of Mus musculus with 6 samples.

Results

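The COP9 signalosome is the protein complex that takes the ubiquitin-like protein NEDD8 off cullins, on which cullin-RING ubiquitin ligases are assembled. The transcripts of its subunits were followed in mouse oocytes with a conditional knockout of Uba3. The 10 subunit genes Gps1, Cops2, Cops3, Cops4, Cops5, Cops6, Cops7a, Cops7b, Cops8 and Cops9 were taken by symbol from the 28738 Ensembl gene IDs of the deposited expression table, and all 10 were found. RNA was sequenced from fully-grown germinal vesicle (GV) oocytes, in which meiosis is still paused at its first prophase. There were 3 libraries of Uba3 conditional knockout (Uba3 cKO) oocytes and 3 of control oocytes, each from a pool of about 150 oocytes of the strain labelled C57/Bl6/N;129SvEv7. The UBA3 protein is the catalytic part of the NEDD8-activating enzyme. The sources used here give neither the promoter that drove the recombinase nor the alleles of the control animals nor the age of the mice. Whether separate animals gave each pool is not in the labels, and the p-values therefore reflect just the variation among these pools, which may be technical.

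As background, NEDD8 is attached to a cullin through an activating enzyme, a conjugating enzyme and a ligase, and the modified cullin-RING ligase is then active. The signalosome cuts NEDD8 off again, so that the ligase can be taken apart and fitted with another substrate receptor. Its catalytic subunit is CSN5, a metalloprotease encoded by Cops5, and mouse embryos that lack Cops2, Cops3, Cops5 or Cops8 die early in development. The subunits resemble those of the lid of the 26S proteasome and of the translation initiation factor eIF3, which share the PCI and MPN protein domains. Substrates of these ligases include regulators of the meiotic and mitotic cell cycle.

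The deposited table gives log2 values that the authors normalized between libraries, and linear values were taken as 2 to that power. The depth of each library is unknown, so no counting interval can be given. The table may be a regularized logarithm, which would understate changes of low genes. Uba3 stood at 10.18 ± 0.16 in Uba3 cKO and 11.39 ± 0.06 in control oocytes (SD, n = 3 each), and the groups did not overlap. Pearson correlations between libraries over the kept genes lay between 0.995 and 0.998. The 12 oocyte markers summed to linear values of 360203 to 404386 in Uba3 cKO and 407586 to 467758 in control libraries, with Dazl called higher and Zp2 and Bmp15 lower. Bmp15, Gdf9 and Zp2, the highest of the list, make up most of these sums, and 4 of the 12 markers had differences above 0. Calls here mean a limma adjusted p below 0.05, and among all kept genes their share was 5.64% for higher and 2.50% for lower values in Uba3 cKO oocytes. The 11 granulosa and cumulus markers summed to 15348 to 19717 in Uba3 cKO and 17263 to 21492 in control libraries, with 2 of them called higher and 1 lower. The 10 theca, stroma and luteal markers summed to 2315 to 2944 in Uba3 cKO and 3243 to 5318 in control libraries, and 5 of the 10 fell. The largest part of these sums is Hsd3b1, which was not called (-0.64, adjusted p = 0.0558 in limma). The 10 blood, immune and endothelial markers summed to 2925 to 3298 in Uba3 cKO and 3004 to 3445 in control libraries. This sum mainly follows Pecam1, the highest of the list at 11.13 to 11.40 on the log2 scale, with a difference of 0.002. Of the 9 kept ones 3 fell (Tie1, C1qb and Hbb-bs). The table holds no exact 0, and the part of these markers in the results was not tested. The lowest of them, C1qa, a complement gene of macrophages, was listed at 3.27 to 3.35 and did not pass the level filter. In such bulk samples, fewer cells of a type and less RNA per cell cannot be told apart.

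Of the signalosome transcripts, 1 of 10 was called between Uba3 cKO and control oocytes. All 10 genes passed the level filter, a linear value of 10 or more in at least 3 libraries, and none was near it: the lowest value of any member was 8.97 on the log2 scale. Cops7b, which encodes an alternative form of the CSN7 subunit, rose by 0.42 on the log2 scale, and the other 9 were not called. The threshold for a call was an adjusted p (Benjamini-Hochberg, limma, over all 17450 kept genes) below 0.05. Of all kept genes 8.14% were called in either direction, 5.64% higher and 2.50% lower, so 1 call among 10 genes is not a result about the set. The median log2 difference of the 10 genes was -0.08, against -0.01 over all kept genes, with 3 genes above 0 and 7 below. Leaving out 1 library moved that median between -0.14 (without control replicate 1) and 0.01 (without control replicate 2).

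**Figure D1:**
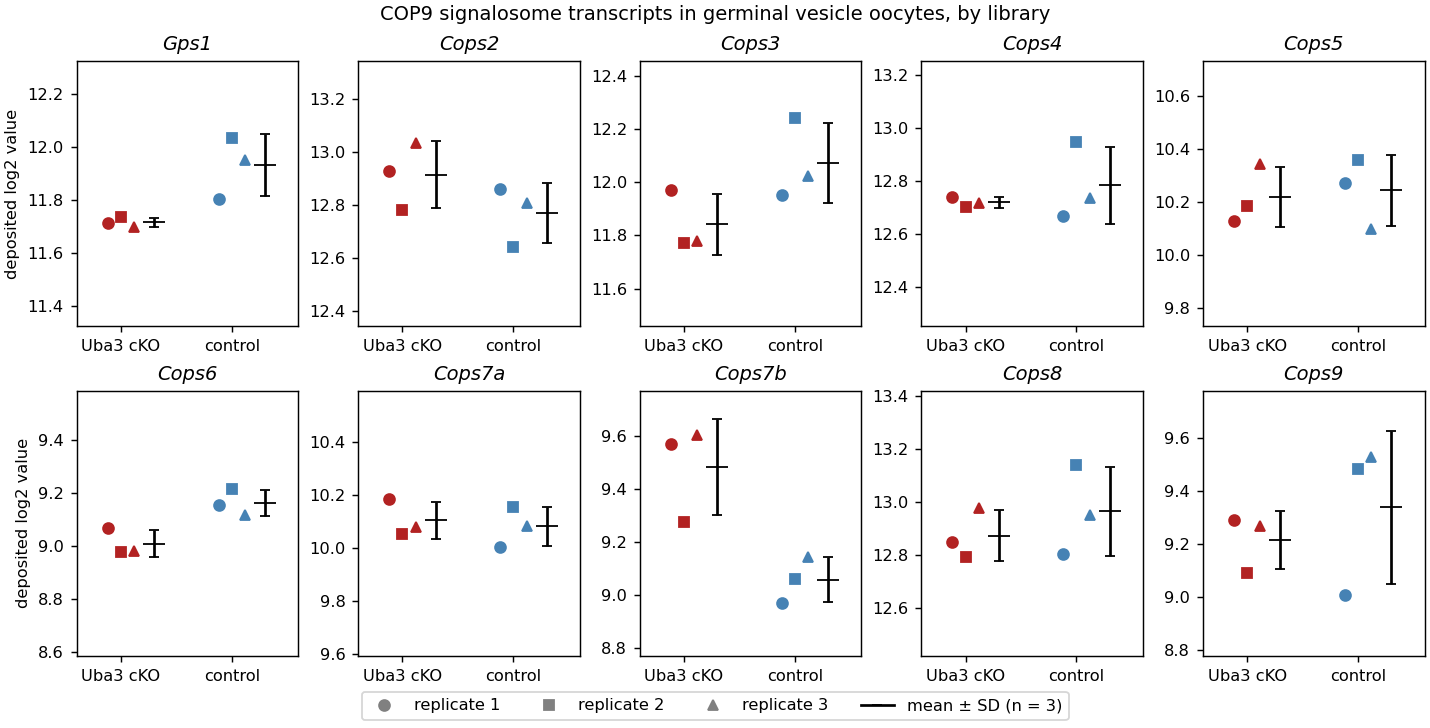
Deposited log2 values (vertical axes, each spanning 1 unit) of the 10 signalosome genes in 3 Uba3 cKO (red) and 3 control (blue) libraries. Symbols are replicates and black bars are the mean ± SD. The groups are apart for Cops7b (higher in Uba3 cKO), Gps1 and Cops6 (lower in Uba3 cKO) and overlap for the other 7.

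The catalytic module is the pair of MPN-domain subunits. Cops5, which encodes the NEDD8 protease itself (also known as JAB1), stood at 10.13, 10.18 and 10.34 in Uba3 cKO replicates 1, 2 and 3 and at 10.27, 10.36 and 10.10 in control replicates 1, 2 and 3. The groups overlapped over nearly their whole range. The log2 difference was -0.02 (SE 0.10, 95% confidence interval -0.25 to 0.20, adjusted p = 0.916 in limma). Cops6 encodes CSN6, the MPN-domain partner of CSN5, which has no protease activity of its own. It stood at 9.07, 8.98 and 8.98 in Uba3 cKO libraries and at 9.15, 9.21 and 9.11 in control libraries. Every Uba3 cKO library was below every control library by a small step. That difference was -0.15 (SE 0.10, interval -0.36 to 0.05, adjusted p = 0.374 in limma) and was not called.

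The PCI-domain subunits form the scaffold of the complex. Gps1 encodes CSN1, the G protein pathway suppressor, and stood at 11.72, 11.74 and 11.70 in Uba3 cKO and at 11.81, 12.04 and 11.95 in control libraries. The 3 Uba3 cKO values were tightly grouped below the 3 controls. The log2 difference was -0.21 (SE 0.09, interval -0.41 to -0.02), with an unadjusted p of 0.0318 and an adjusted p of 0.169 in limma. The reads of Gps1 are uncertain, because 40.3% of the 50-base words in its annotated transcripts also occur in the processed pseudogene Gm9816. That copy was listed at 3.43 to 3.46 in Uba3 cKO and 3.43 to 3.48 in control libraries, far below Gps1.

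Cops3 encodes CSN3 and had the most negative difference of the set. It stood at 11.97, 11.77 and 11.78 in Uba3 cKO libraries and at 11.95, 12.24 and 12.02 in control libraries. Uba3 cKO replicate 1 lay within the control range. The difference was -0.23 (SE 0.10, interval -0.45 to -0.02, unadjusted p = 0.0369, adjusted p = 0.184 in limma). Its place among the differences of all kept genes was the 8.32 percentile.

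Cops2 encodes CSN2 (also known as TRIP15), the subunit that binds the cullin end carrying the RING protein. It was the other member besides Cops7b and Cops7a with a difference above 0. The values were 12.93, 12.78 and 13.04 in Uba3 cKO and 12.86, 12.64 and 12.81 in control libraries, and the groups overlapped. The difference was 0.14 (SE 0.09, interval -0.06 to 0.34, adjusted p = 0.383 in limma). Control replicate 2 was the lowest control for this gene, whereas it was the highest control for 7 members.

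Cops4 and Cops8 encode CSN4, which takes part in sensing a bound cullin, and the small PCI subunit CSN8. Cops4 stood at 12.74, 12.70 and 12.72 in Uba3 cKO and at 12.67, 12.95 and 12.74 in control libraries. Cops8 stood at 12.85, 12.79 and 12.98 in Uba3 cKO and at 12.80, 13.14 and 12.95 in control libraries. Both genes overlapped between the groups, and in both control replicate 2 was the highest of the 6 libraries. Their differences were -0.06 (interval -0.26 to 0.13) and -0.09 (interval -0.30 to 0.12), with adjusted p of 0.721 and 0.623 in limma. Cops9 encodes CSNAP, the smallest subunit, and had the widest spread among controls. It stood at 9.29, 9.09 and 9.27 in Uba3 cKO and at 9.01, 9.48 and 9.53 in control libraries, so that control replicate 1 was the lowest library of all. Its difference was -0.12 (SE 0.13, interval -0.41 to 0.16, adjusted p = 0.637 in limma). Without control replicate 1 it was -0.29 and without control replicate 3 it was -0.027.

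**Figure D2:**
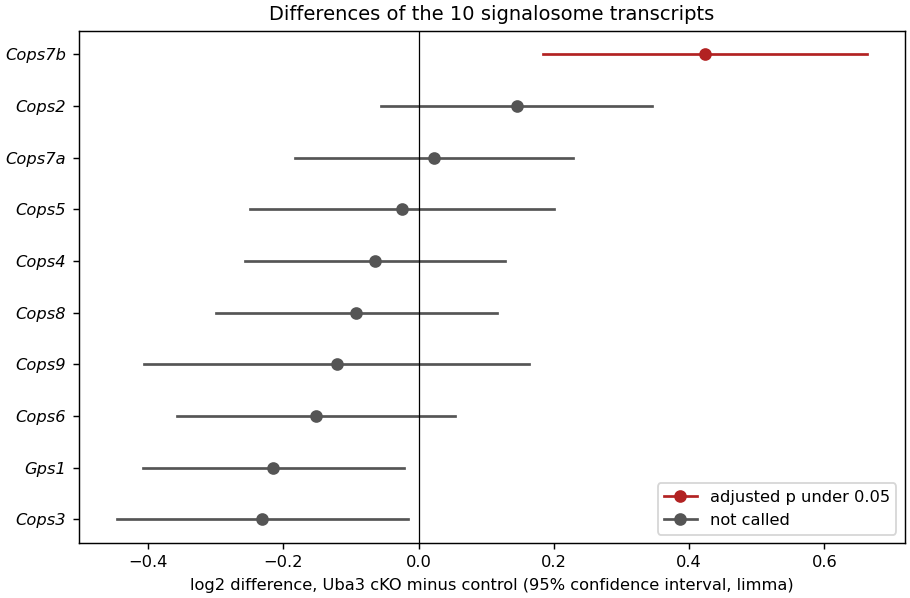
Log2 difference of each signalosome gene, Uba3 cKO minus control (horizontal axis), with its 95% confidence interval from limma before adjustment for the number of genes. Cops7b (0.42) is called, the intervals of Gps1 and Cops3 lie below 0 without a call, and the other 7 intervals include 0.

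CSN7 is the subunit that mammals make in alternative forms from a pair of genes, Cops7a and Cops7b. Cops7b stood at 9.57, 9.27 and 9.60 in Uba3 cKO replicates 1, 2 and 3 and at 8.97, 9.06 and 9.14 in control replicates 1, 2 and 3. All 3 Uba3 cKO libraries were above all controls, and Uba3 cKO replicate 2 was nearest to them. The mean was 9.48 ± 0.18 in Uba3 cKO and 9.06 ± 0.09 in control oocytes (SD, n = 3 each), a 1.34-fold higher level (SE 0.11 on the log2 scale, interval 0.18 to 0.66, adjusted p = 0.0329 in limma). By p-value it ranked 1036 of 17450 kept genes, and its difference lay at the 96.5 percentile. The call ended without Uba3 cKO replicate 1 (adjusted p = 0.132), Uba3 cKO replicate 3 (0.129), control replicate 1 (0.0632), control replicate 2 (0.0816) or control replicate 3 (0.0731). Without Uba3 cKO replicate 2 it was 0.53 with an adjusted p of 0.0133.

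Cops7a, the other gene of the pair, was not called. Its values were 10.18, 10.05 and 10.08 in Uba3 cKO and 10.005, 10.15 and 10.08 in control libraries, and the groups overlapped. The difference was 0.02 (SE 0.10, interval -0.18 to 0.23, adjusted p = 0.916 in limma). The log2 value of Cops7b minus that of Cops7a, not corrected for length, was -0.62 ± 0.15 in Uba3 cKO and -1.02 ± 0.08 in control libraries (SD, n = 3 each). The gap was narrower in all 3 Uba3 cKO libraries than in any control. The difference between the groups, 0.40, had an exact two-sided permutation p of 0.1, the smallest that 3 against 3 libraries allow. This test could therefore not fall under 0.05. Without control replicate 2 the difference was 0.37 with a permutation p of 0.2, and in the other settings tried that p was 0.1. The gap contains the Cops7b values that gave the call, so it is not separate support for it. Per kilobase of annotated exon, Cops7b made up 24.3%, 22.3% and 26.1% of the sum of both genes in Uba3 cKO libraries. In control libraries it made up 19.3%, 18.7% and 20.4%. These shares rest on annotated lengths, and the lengths present in these oocytes are unknown. The longest exact run that annotated transcripts of the pair share is 14 bases.

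**Figure D3:**
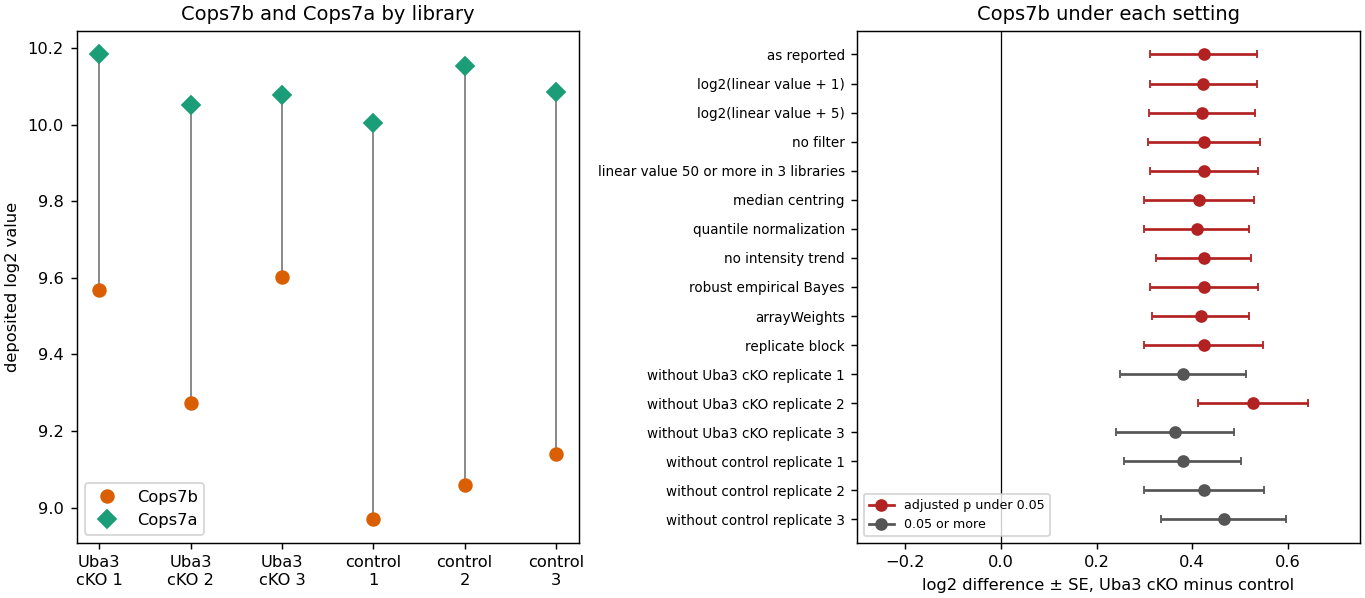
Left, deposited log2 values of Cops7b (circles) and Cops7a (diamonds) in each library, joined by a line that marks the gap between them. Right, the log2 difference of Cops7b ± SE under each way of processing or leaving out a library, in red where the adjusted p was under 0.05. The gap is narrower in the 3 Uba3 cKO libraries, and the difference keeps its sign in all settings shown while the call ends in 5 of them.

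The sequence before the start sites of this pair is shown because Cops7b was the single member called and Cops7a encodes the alternative form of the same subunit. The 250 bases that precede the RefSeq start of Cops7b (GRCm38.p6, chr1:86582671-86582920, plus strand) and the more upstream of 2 listed starts of Cops7a (GRCm38.p6, chr6:124965513-124965762, minus strand) are printed 5′ to 3′ from the RefSeq table, with motif matches in capitals.
Cops7b: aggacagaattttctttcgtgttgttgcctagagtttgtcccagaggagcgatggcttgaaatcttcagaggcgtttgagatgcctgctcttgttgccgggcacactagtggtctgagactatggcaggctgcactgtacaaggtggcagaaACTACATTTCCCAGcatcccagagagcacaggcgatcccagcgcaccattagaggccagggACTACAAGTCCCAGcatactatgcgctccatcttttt
Cops7a: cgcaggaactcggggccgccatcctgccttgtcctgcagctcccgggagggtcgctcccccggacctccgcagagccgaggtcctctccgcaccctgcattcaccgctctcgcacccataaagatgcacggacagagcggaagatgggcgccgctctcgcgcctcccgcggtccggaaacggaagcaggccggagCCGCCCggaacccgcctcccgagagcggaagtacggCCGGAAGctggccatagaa
The windows differed in base composition, with 51.6% G and C and 7 CpG in Cops7b and 69.6% and 29 CpG in Cops7a. In Cops7b the capitals mark 2 copies of ACTACA followed, after any 2 bases, by TCCCAG, a motif that was added to the search after this sequence was seen. They begin 98 and 37 bases before the start, on the strand of the gene. In Cops7a the capitals mark a GC box on the opposite strand and an ETS core on the strand of the gene.

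Motifs were searched on both strands of the 250 bases before each of 32851 listed starts, and 9 of the 10 members had an entry. A member counted if any of its listed starts matched, whereas the shares of all windows are per start. Windows were not matched for base composition, so setting these numbers side by side cannot show an enrichment among members. The motif added to the search occurred in 0.95% of all windows and in 2 or more copies in 17 of them. Among members only Cops7b held it. The ETS core CCGGAAG occurred in 6 of the 9 members (Cops2, Cops3, Cops7a, Cops8, Cops9 and Gps1) and in 6.91% of all windows. The GC box GGGCGG occurred in 5 of the 9 and 32.7% of all windows, CCAAT in 2 and 33.8%, and the E-box CACGTG in 2 and 6.02%. None of the 9 held TATAAA (12.4% of all windows), TGACGTCA (1.55%), the NRF1 motif of GCGCA joined to TGCGC (0.782%) or the YY1 motif of AAGATG joined to GCGGC (0.207%). A match describes the letters in this window and does not show that a factor binds there.

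Several members lie against a neighbour on the opposite strand, and the sources used here do not give the strand setting of the counting. Only protein-coding neighbours were searched, those that overlap a member or start on the opposite strand within 1000 bases of its start. Antisense non-coding genes and pseudogenes were not searched. In the GENCODE annotation Cops2 overlaps Galk2, Cops3 overlaps Nt5m, Cops5 overlaps Cspp1 and Cops6 overlaps Mcm7, by 31, 392, 182 and 64 bases. The starts of Gps1 and Rfng lie 65 bases apart and those of Cops7b and Pde6d 275 bases apart, with the genes facing away from each other. None of these 6 neighbours was called. Pde6d, which encodes a chaperone of prenylated proteins, stood at 11.75, 11.74 and 11.63 in Uba3 cKO and at 11.67, 12.18 and 12.07 in control libraries. Its difference was -0.26 (SE 0.12, adjusted p = 0.200 in limma), opposite in sign to that of Cops7b. Galk2, Nt5m, Cspp1, Mcm7 and Rfng had differences of -0.02, -0.05, 0.13, 0.10 and 0.02.

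Subunit transcripts fell into an upper and a lower tier of level when divided by annotated exon length. That length joins the exons of all annotated transcripts of a gene, and the lengths present in these oocytes are unknown. The tiers and the order within them hold for this length only. Per kilobase of annotated exon, on the linear scale, Cops2 was the highest at 2182 ± 190 in Uba3 cKO and 1973 ± 153 in control oocytes (SD, n = 3 each). Cops8 followed with 1689 ± 114 in Uba3 cKO and 1806 ± 211 in control, and Cops4 with 1348 ± 18 in Uba3 cKO and 1414 ± 146 in control. Gps1 had 1170 ± 14 in Uba3 cKO and 1360 ± 109 in control, and Cops3 had 1065 ± 86 in Uba3 cKO and 1252 ± 134 in control. These 5 were the upper tier. In control libraries the ranges of Cops2 and Cops8 overlapped, as did those of Cops4 and Gps1 and of Gps1 and Cops3.

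A lower tier held the other 5. Cops9 had 397 ± 29 in Uba3 cKO and 437 ± 82 in control, and Cops7a had 406 ± 20 in Uba3 cKO and 400 ± 21 in control, with overlapping ranges in both groups. Cops5, for the catalytic subunit, had 317 ± 25 in Uba3 cKO and 323 ± 29 in control, and Cops6 had 204 ± 7.2 in Uba3 cKO and 227 ± 7.7 in control. Cops7b was the lowest at 130 ± 16 in Uba3 cKO and 96.7 ± 5.7 in control. Summed over the 10 genes, the level per kilobase was 9045, 8482 and 9196 in Uba3 cKO replicates 1, 2 and 3 and 8761, 9847 and 9256 in control replicates 1, 2 and 3. The sums overlapped between the groups.

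**Figure D4:**
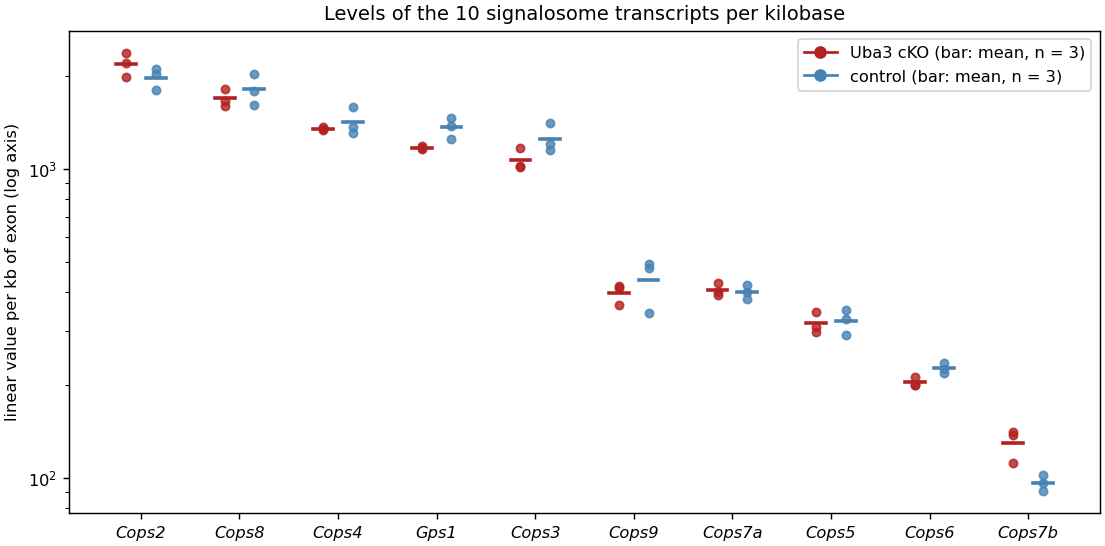
Linear value per kilobase of annotated exon (vertical axis, logarithmic) of the 10 signalosome genes, ordered by their control mean, with a point per library and a bar at the mean of 3. Cops2, Cops8, Cops4, Gps1 and Cops3 lie above the other 5 in every Uba3 cKO (red) and control (blue) library.

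Libraries of a group also differed from each other across the members. Control replicate 2 was the highest control for 7 of 10 members, against 35.6% of all kept genes, and control replicate 1 was the lowest control for 7, against 36.2%. Uba3 cKO replicate 2 was the lowest of its group for 8 of 10 members, against 37.9% of all kept genes. The mean deviation of the 10 genes from the average library was 0.02, -0.09 and 0.02 in Uba3 cKO replicates 1, 2 and 3 and -0.08, 0.10 and 0.02 in control replicates 1, 2 and 3. The groups did not overlap for 3 of 10 members, 1 higher and 2 lower in Uba3 cKO. Over all kept genes they did not overlap for 27.9%, with 15.1% higher and 12.8% lower, so this share is near that of all genes.

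Genes that work around the signalosome were compared from lists. Among 12 other genes of NEDD8 attachment and removal, Uba3 fell. It is the gene targeted by the knockout, so its call is not a result about the list. The remaining 11 were not called, against 8.14% of all kept genes called, and the median log2 difference of the list was -0.08. Senp8, the protease that matures NEDD8 and also removes it from proteins other than cullins, had -0.10 (interval -0.34 to 0.14, adjusted p = 0.659 in limma). Nedd8 itself had 0.01, its other activating subunit Nae1 had -0.15, and Dcun1d1, a ligase factor with the highest deposited value of the list, stood at 13.38 in Uba3 cKO and 13.49 in control oocytes with a difference of -0.11. Nub1, which binds NEDD8 and was not called, had -0.25, and without control replicate 1 it was called lower (-0.36, adjusted p = 0.0280).

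The cullins are what the signalosome acts on. Of 13 cullins, RBX proteins and exchange factors, Cul5 rose and 12 were not called, with a median of 0.01. Over all kept genes 8.14% were called, so 1 call among 13 genes is not a result about the list. Cul5 stood at 13.08 in Uba3 cKO and 12.31 in control oocytes, a difference of 0.77 (SE 0.09, adjusted p = 1.46e-04 in limma), and it stayed called without any single library. Cul1, with the highest deposited value, stood at 15.36 in Uba3 cKO and 15.42 in control (-0.06). Cand1, which exchanges substrate receptors on cullins free of NEDD8, had 0.04 (interval -0.13 to 0.22). Of 7 partners that bind or modify the signalosome none was called, none had an unadjusted p under 0.05, and their median was -0.06. That median was above 0, at most 0.01, without Uba3 cKO replicate 2, Uba3 cKO replicate 3 or control replicate 3. The highest deposited value was that of Usp15, a deubiquitinase bound to the complex, at 13.35 in Uba3 cKO and 13.50 in control (-0.15).

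The proteasome lid and eIF3 are built like the signalosome, and 8.14% of all kept genes were called. None of 9 subunits of the proteasome lid was called (1 had an unadjusted p under 0.05), with a median of 0.02 that was -0.05 without control replicate 1, and Psmd8, with the highest deposited value, had 0.07. Psmd14, the lid protease related to CSN5, had 0.14 (interval -0.09 to 0.37, adjusted p = 0.466 in limma). Of 14 genes for eIF3 subunits 13 were not called. Eif3i fell by 0.50 (SE 0.10, adjusted p = 0.00868 in limma), also without any single library. The median of the eIF3 list was -0.09, and Eif3e (INT6), with its highest deposited value, had -0.14.

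Other proteins of the JAMM/MPN family included 2 called genes. Of 6 such genes, Stambpl1 rose and Stambp fell, and 4 were not called. Over all kept genes 5.64% were called higher and 2.50% lower. With 6 genes and calls in opposite directions, this count is not read as a result about the family. Both encode deubiquitinases that cleave ubiquitin chains linked through lysine 63, AMSH-LP and AMSH. Stambpl1 stood at 8.08 in Uba3 cKO and 7.25 in control oocytes, a difference of 0.83 (SE 0.13, adjusted p = 0.00142 in limma), and it stayed called without any single library. Stambp stood at 7.02 in Uba3 cKO and 7.42 in control, a difference of -0.40 (SE 0.11, adjusted p = 0.0445 in limma). The call was lost when any library but Uba3 cKO replicate 2 was left out (adjusted p up to 0.161) and with no intensity trend (0.0619). Prpf8, the splicing factor with the highest deposited value of the 6, had -0.04.

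**Figure D5:**
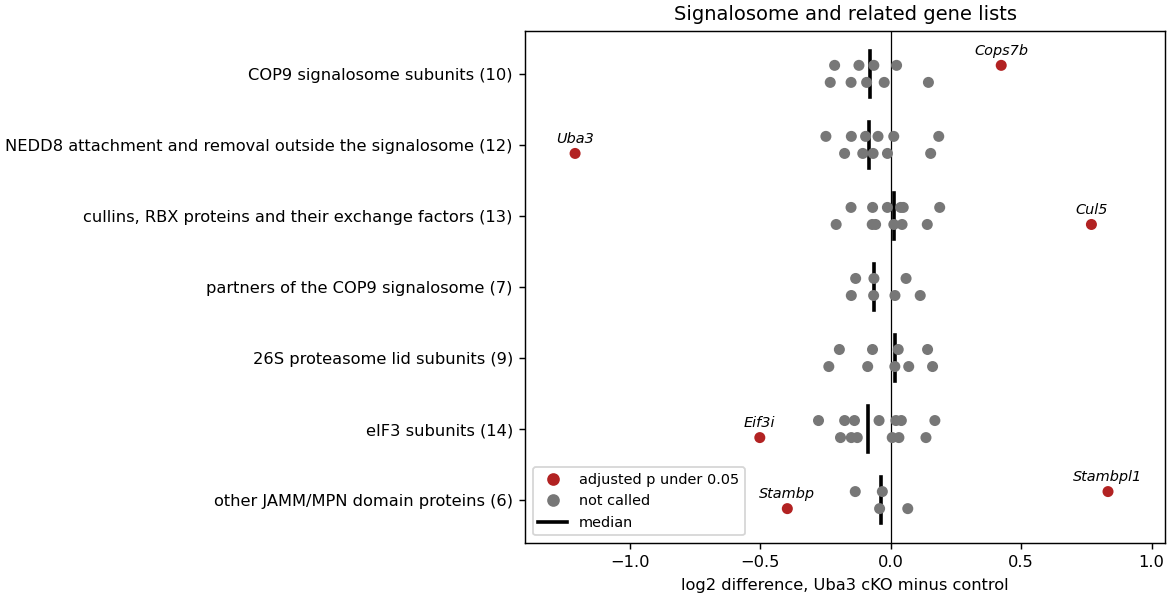
Log2 difference, Uba3 cKO minus control, of each gene of the signalosome and 6 related lists, with the number of genes of each list in brackets, called genes in red and named, and a black bar at the median. Medians lie between -0.09 and 0.02. A list holds at most 2 called genes, and 8.14% of all kept genes were called.

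The genes whose pattern over the 6 libraries was most like that of Cops7b were Gjb2, Nudt9 and Zcchc3, with Pearson r of 0.997, 0.996 and 0.994. Likeness was ranked over 11623 genes whose linear value averaged at least 50, and 529 of them had r of 0.9 or more, which shows how common a high r is over 6 libraries. Gjb2, a gap junction connexin, stood at 7.41 in Uba3 cKO and 6.76 in control oocytes and was called (0.65, adjusted p = 0.00512 in limma). Nudt9 (0.33) and Zcchc3 (0.05) were not called. These genes were picked for likeness to Cops7b over the same 6 libraries, so the call of Gjb2 is not separate support.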

How the data were processed

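The 6 libraries of RNA from pooled oocytes were grouped by their titles. Per the submitters' processing notes, GRCm39 was the build and STAR, featureCounts, fastp and DESeq2 were among the tools, and no version is named. The deposited table holds log2 values that the authors normalized between libraries. The unit was read from the values (0.0363 to 18.01, no exact 0), and the transform is not named. Symbols came from GENCODE M21, which matched 27660 of 28738 IDs (96.2%). It annotates an earlier mouse build, so it served for names, exon lengths and neighbours, and the only coordinates given are those of RefSeq promoters on GRCm38.p6.

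Differences were fitted by limma 3.58.1 with an intensity trend (R 4.3.3) on the deposited log2 values of 17450 kept genes, 11288 being dropped by the level filter. Differences are Uba3 cKO minus control. The fit was tested on simulated data. Exact permutation tests were two-sided. Genes named are all members and Uba3. Of each list outside the cell type markers, up to 4 called members and the one with the highest deposited value were named. Senp8, Nedd8, Nae1, Nub1, Cand1, Psmd14 and the neighbours were named for their role or after their values were seen. Naming of cell type markers followed no such rule. For each called member the 3 genes most alike by Pearson r were named. The members and lists were chosen with earlier results of these data known. Alternatives covered scale, filter, scaling between libraries, variance model, sample weights, replicate block and leaving out each library.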

Additional observations from a re-analysis of the deposited data

How the results depend on the processing

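Of the 10 members, Cops7b kept its direction under all 16 alternatives (0.36 to 0.53) and its call under 11. The other 9 were called under none. Cops8 ranged from -0.17 (without control replicate 1) to -0.0051 (without control replicate 2) and Cops9 from -0.29 to -0.027. Differences near 0 changed sign without a library: Cops4 ranged from -0.12 to 0.017 (above 0 without control replicate 2), Cops5 from -0.097 to 0.034 (above 0 without Uba3 cKO replicate 1 or control replicate 2) and Cops7a from -0.017 to 0.059 (below 0 without Uba3 cKO replicate 1 or control replicate 1). The medians of the related lists lay within -0.13 and 0.06 under every alternative, and those of the lid, the cullins, the partners and the JAMM/MPN genes changed sign in 2 to 4 of them. Leaving out 1 library gave 0 to 1 called members, 1 to 2 called genes of NEDD8 attachment and removal, and 1 to 2 of the other JAMM/MPN genes (1 also with no intensity trend). Over all kept genes it gave 618 to 1637 calls, with 482 to 1014 higher and 136 to 623 lower, against 1421, 984 and 437 with all 6. The total was 681 without Uba3 cKO replicate 1, 709 without Uba3 cKO replicate 3, 780 without control replicate 2 and 618 without control replicate 3, against 1283 without Uba3 cKO replicate 2 and 1637 without control replicate 1. The cause was not tested. With arrayWeights 2298 genes were called, 829 of them lower. The gap between Cops7b and Cops7a differed by 0.33 to 0.48 between the groups when 1 library was left out. Same-numbered libraries did not deviate together (r of -0.09, -0.20 and -0.05), so the numbers were not taken to pair the samples. With differently numbered control libraries the highest r was 0.19, 0.28 and 0.25 for Uba3 cKO replicates 1, 2 and 3. Values were centred within each group, so a negative r with the same-numbered control library forces a positive r with another. These highest values therefore do not show shared variation. Variation shared between differently numbered libraries would not be covered by a block on the replicate number, and it was not tested. With the replicate block 1258 genes were called and Cops7b had an adjusted p of 0.0338 in limma, and the block changed no call of a member. The number of libraries and the unknown depth limit precision: the 95% intervals of the 9 uncalled members lie between -0.45 (Cops3) and 0.34 (Cops2) on the log2 scale.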
